A study of Mus musculus with 6 samples.

Results

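Cerebellins and C1q-like proteins are secreted synapse organizers, and the genes described here encode such ligands, their postsynaptic receptors and a scaffold protein of a delta-type glutamate receptor. The 8 genes, *Cbln1*, *Cbln2*, *Cbln3*, *Cbln4*, *C1ql1*, *Grid1*, *Adgrb3* and *Grid2ip*, were chosen by symbol from the 53746 genes of the count table, and each of the 8 had a row. RNA was sequenced from the whole cerebellum of 6 mice aged 2 months, 3 with the genotype *N153S* LSL/LSL and *Pcp2-cre* (Pcp2-cre) and 3 with *N153S* LSL/LSL alone (control), and in each group mice 1 and 2 were male and mouse 3 female. Both groups carry the conditional *N153S* allele of the STING gene, which stays silent behind a stop cassette until Cre removes it. *Pcp2-cre* expresses Cre in Purkinje cells, so the groups differ in the presence of Cre, and no Cre-only group was analysed here. The question is which genes of these synapses differed in RNA level once the active STING mutant was expressed in Purkinje cells.

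At the synapse between a granule cell axon (parallel fibre) and a Purkinje cell, cerebellin released by the granule cell bridges neurexin on the axon and a delta-type glutamate receptor on the Purkinje cell spine. Climbing fibres, the axons of inferior olive neurons in the brainstem, use a related pair, in which the ligand encoded by *C1ql1* binds the adhesion receptor encoded by *Adgrb3* on Purkinje cells. Loss of these proteins in mice is known to weaken the matching synapse and to disturb motor coordination.

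Library sizes were 8151391, 6809768 and 10178218 counts for controls 1, 2 and 3, against 7565899, 8572674 and 6733178 for Pcp2-cre mice 1, 2 and 3. Levels are given as CPM, counts scaled to the library size after TMM normalization, or as FPKM, the deposited values scaled to gene length and library size. A floor of 3 counts, used as the limit of detection, lay between 0.297 and 0.447 CPM in these libraries, and like the intervals on summed counts it covers counting error only. Counts were compared with edgeR's quasi-likelihood test over the 16961 genes that passed its filter on low counts, and a gene was called lower or higher when its Benjamini-Hochberg adjusted p did not exceed 0.05.

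Of the 8 genes, 6 passed the filter and were tested, while *Cbln2* and *Cbln4* had too few counts. The scaffold gene *Grid2ip* and the receptor gene *Adgrb3*, both of the Purkinje cell side, were lower in Pcp2-cre cerebella, with log2 fold changes of -0.49 and -0.21. The granule cell ligands *Cbln1* and *Cbln3* had log2 fold changes of 0.04 and 0.01. Thus 2 of 6 tested genes were called lower, against 4.75% of all tested genes. None of the 6 was called higher in edgeR's test, against 2.99% of all tested genes, and the count of higher genes was also 0 at an unadjusted p under 0.05 and in DESeq2. In *Grid2ip* and *Adgrb3* all Pcp2-cre mice lay below all controls, as in 11.4% of all tested genes, and in 0 of the 6 did every Pcp2-cre mouse lie above, as in 10.8% of tested genes. A log2 fold change of 0.5 or more in either direction, the further threshold of the study, was reached by none of the 6 tested organizer genes in the main fit, and 1.79% of all tested genes were lower and 1.37% higher with it. *Grid2ip* fell just short of that threshold and passed it in 3 of 16 alternatives (-0.50, -0.53 and -0.53).

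The cerebellum is bulk tissue here, so fewer cells of a type and less RNA per cell cannot be told apart. Markers of Purkinje cells moved with the genotype. All 9 genes of a Purkinje cell marker list were called lower, with none of the 9 at 0. The most abundant was *Itpr1* in CPM and *Pcp2* in FPKM. The summed level of the list was 8010, 7854 and 7289 CPM in controls against 4471, 4012 and 4274 CPM in Pcp2-cre mice 1, 2 and 3. The part of this fall in the values of *Grid2ip* and *Adgrb3* was not tested.

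**Figure D1:**
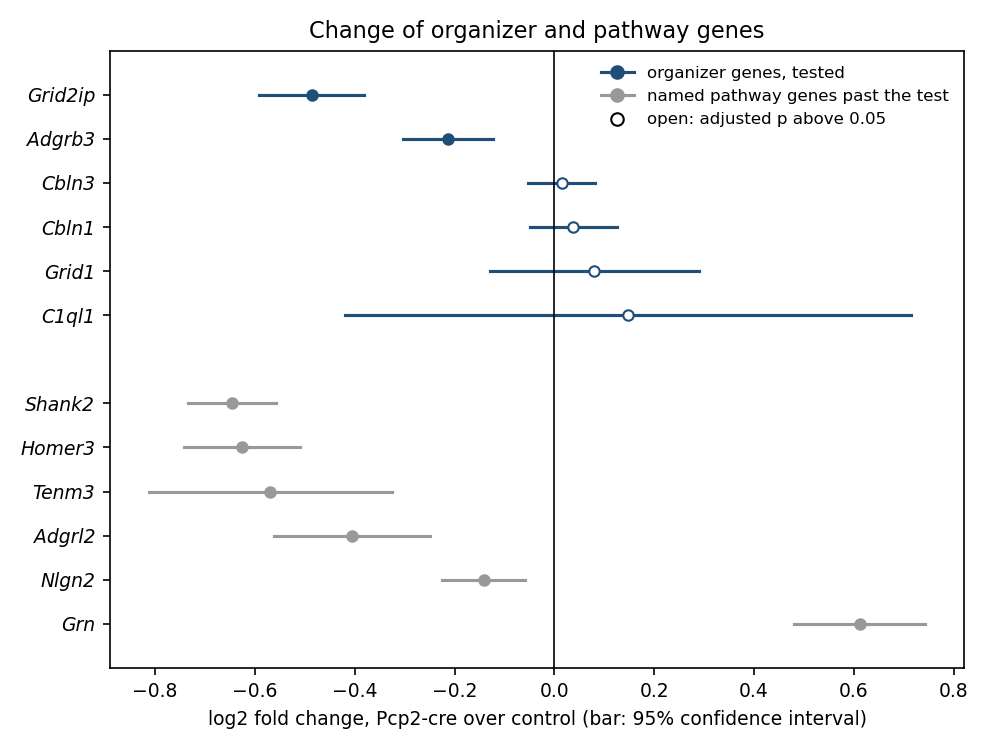
Log2 fold change (Pcp2-cre over control, n = 3 mice each) of the 6 tested organizer genes, above, and of 6 pathway genes past the test that are named in the text, below. Points are edgeR estimates, bars are 95% confidence intervals and open points have an adjusted p above 0.05. *Grid2ip* and *Adgrb3* lie left of 0, at -0.49 and -0.21, and the intervals of the other 4 organizer genes include 0.

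Promoter sequences are shown for *Grid2ip* and *Adgrb3*, which fell together, and for *Cbln3*, an abundant ligand gene, for comparison. The promoter table used here, from RefSeq (build GRCm38.p6), held 300 bases around an annotated transcript start for 4 of the 8 genes, with 5 starts in all. For *Cbln1*, *Cbln2*, *Grid1* and *C1ql1* this table held no entry. Sequences run 5′ to 3′ along the gene, and capitals mark GGGCGG on either strand (CCGCCC where it lies on the other one), the GC box that Sp family factors are known to bind.
*Grid2ip*, first start, chr5:143363663-143363962, forward strand: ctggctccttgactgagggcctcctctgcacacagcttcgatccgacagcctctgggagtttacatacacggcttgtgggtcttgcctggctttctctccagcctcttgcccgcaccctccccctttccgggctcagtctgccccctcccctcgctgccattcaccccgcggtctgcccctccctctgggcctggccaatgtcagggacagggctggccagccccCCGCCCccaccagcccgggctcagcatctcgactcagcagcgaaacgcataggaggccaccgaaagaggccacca
*Grid2ip*, second start, chr5:143369824-143370123, forward strand: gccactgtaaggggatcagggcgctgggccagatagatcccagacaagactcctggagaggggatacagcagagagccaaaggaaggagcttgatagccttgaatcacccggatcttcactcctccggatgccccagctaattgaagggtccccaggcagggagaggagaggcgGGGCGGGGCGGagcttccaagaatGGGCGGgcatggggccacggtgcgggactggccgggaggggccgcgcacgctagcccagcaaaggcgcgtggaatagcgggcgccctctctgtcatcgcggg
*Adgrb3*, chr1:25829658-25829957, reverse strand: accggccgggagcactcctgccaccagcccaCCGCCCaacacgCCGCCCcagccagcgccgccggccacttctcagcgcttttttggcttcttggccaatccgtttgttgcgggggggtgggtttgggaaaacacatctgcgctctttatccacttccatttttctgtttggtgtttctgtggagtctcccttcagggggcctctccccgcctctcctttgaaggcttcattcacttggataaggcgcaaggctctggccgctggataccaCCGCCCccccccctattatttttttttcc
*Cbln3*, chr14:55884207-55884506, reverse strand: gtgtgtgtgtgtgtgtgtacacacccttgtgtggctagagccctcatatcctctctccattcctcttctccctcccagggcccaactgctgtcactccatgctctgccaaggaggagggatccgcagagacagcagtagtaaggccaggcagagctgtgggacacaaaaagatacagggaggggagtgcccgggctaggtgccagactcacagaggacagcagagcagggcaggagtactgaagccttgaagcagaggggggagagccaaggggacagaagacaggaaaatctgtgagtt

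The first start of *Grid2ip* held 1 match of GGGCGG, the second start 3, of which a pair shares 1 base, and the *Adgrb3* start 3, while the *Cbln3* start held 0. The start of *Cbln4*, a gene with too few counts to be tested, is not printed and held 2, with a GC content of 60.3% and 15 CpG, so such features were also found outside the genes called lower. Over all promoters of the table, each 300 bases long, 35.7% of 32851 held this motif, and 4 of the 5 starts of the organizer genes did. Base composition differed too. GC content was 66.0% and 65.0% at the *Grid2ip* starts, 59.0% at *Adgrb3* and 57.0% at *Cbln3*, and the CpG count was 14, 19, 16 and 2, beside medians of 52.7% and 7 over all promoters. The E-box CANNTG was found in 3 of the 5 starts and in 72.3% of all promoters, and the nuclear receptor half-site AGGTCA in 0 of the 5 and in 16.3%. The motifs were chosen after the data had been seen, and a match describes these letters only.

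The ligands come first. *Cbln1* (ENSMUSG00000031654, chromosome 8 of GRCm39, 88195033 to 88199261, reverse strand) encodes the cerebellin that granule cells release at parallel fibre synapses. It had 599.9, 622 and 654 CPM in controls against 627, 626 and 675 CPM in Pcp2-cre mice 1, 2 and 3. The groups overlapped, with the highest value in a Pcp2-cre mouse and the lowest in a control. The means were 625 ± 27.0 and 642.5 ± 27.8 CPM (SD, n = 3 mice each), and the log2 fold change was 0.04 (standard error 0.0413, 95% confidence interval -0.05 to 0.12, Benjamini-Hochberg adjusted p = 0.712 in edgeR's quasi-likelihood test). Its exons share 591 bp with *Gm19872* on the opposite strand, which had 0 counts in every mouse.

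*Cbln3* (ENSMUSG00000040380, chromosome 14, 56116370 to 56121849, reverse strand) encodes a granule cell cerebellin that is secreted in complex with the *Cbln1* product. Its level was 1233, 1196 and 1192 CPM in controls against 1208, 1216 and 1235 CPM in the Pcp2-cre mice, in the order of mouse number. All 6 values lay within a narrow band and the groups overlapped. The log2 fold change was 0.01 (standard error 0.0322, 95% confidence interval -0.05 to 0.08, Benjamini-Hochberg adjusted p = 0.875 in edgeR's quasi-likelihood test). Of its exons 28 bp overlap *Khnyn* on the opposite strand, which had a log2 fold change of 0.00.

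Since the 2 products are secreted together, the log2 ratio of *Cbln1* to *Cbln3* counts within each library was examined, as 1 of 4 ratios chosen after seeing the data. It was -1.04, -0.94 and -0.87 in controls against -0.95, -0.96 and -0.87 in Pcp2-cre mice, so that every Pcp2-cre value lay within the control range. The difference of the means was 0.02 (two-sided exact permutation p = 0.90, also 0.90 after Benjamini-Hochberg adjustment over the 4 ratios).

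Both ligand genes were also set against granule cell markers, whose summed level was 2814, 2785 and 2828 CPM in controls against 2915, 2873 and 2972 CPM in Pcp2-cre mice. Of these 7 markers 1, *Neurod1*, was called higher, and their median log2 fold change was 0.06. Relative to the mean log2 CPM of the markers, *Cbln1* differed by -0.02 between groups (two-sided exact permutation p = 0.80) and *Cbln3* by -0.04 (p = 0.20, exact permutation). After Benjamini-Hochberg adjustment over 4 such comparisons these exact permutation values were 0.80 and 0.267, and 3 mice against 3 cannot give a p below 0.10. The groups overlapped in both genes. The median of the marker levels is *Rbfox3* in every mouse, and against *Rbfox3* alone the differences were -0.05 for *Cbln1* and -0.08 for *Cbln3*.

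*Cbln4* (ENSMUSG00000067578, chromosome 2, 171878142 to 171885460, reverse strand) encodes a cerebellin known to bind neurexins and the netrin receptor DCC. It had 5, 2 and 5 counts in controls against 9, 5 and 8 in Pcp2-cre mice. The lowest value lay in a control and the highest in a Pcp2-cre mouse, and in CPM the groups overlapped. Summed over mice, 12 counts in control gave 0.483 CPM (exact Poisson 95% confidence interval 0.250 to 0.844) and 22 in Pcp2-cre gave 0.956 CPM (0.599 to 1.45), intervals that overlap. Without the filter on low counts the log2 fold change was 0.96 (Benjamini-Hochberg adjusted p = 0.437 in edgeR's quasi-likelihood test), so a difference was not detectable at this depth.

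*Cbln2* (ENSMUSG00000024647), a neurexin ligand known from forebrain and brainstem neurons, had 0, 0 and 4 counts in controls against 0, 3 and 2 counts in Pcp2-cre mice. A single control library exceeded the floor of 3 counts. The summed counts were 4 and 5, equal to 0.161 CPM (exact Poisson 95% confidence interval 0.0439 to 0.412) and 0.217 CPM (0.0705 to 0.507).

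*C1ql1* (ENSMUSG00000045532, chromosome 11, 102829755 to 102837610, reverse strand) encodes the climbing fibre ligand. It had 25, 23 and 33 counts in controls against 24, 46 and 14 counts in Pcp2-cre mice, or 3.12, 3.43 and 3.27 CPM and 3.16, 5.31 and 2.07 CPM. Pcp2-cre mouse 2 was the highest and Pcp2-cre mouse 3 the lowest of the 6, with all controls between them. The log2 fold change was 0.15 (standard error 0.272, 95% confidence interval -0.42 to 0.71, Benjamini-Hochberg adjusted p = 0.847 in edgeR's quasi-likelihood test), and over 16 alternatives it ran from -0.31, without Pcp2-cre mouse 2, to 0.39, without Pcp2-cre mouse 3. This interval is the widest among the tested organizer genes, and it includes an increase of the same size as the fall of *Grid2ip*.

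The cell bodies of climbing fibres lie in the inferior olive, outside the cerebellum. Of 9 markers of excitatory nuclei and brainstem, 6 were at or under 3 counts in every mouse, 2 of these at 0. *Slc17a6*, the most abundant, had a log2 fold change of 0.59 (Benjamini-Hochberg adjusted p = 0.0516 in edgeR's quasi-likelihood test), and the summed level of the list was 10.9, 6.55 and 14.5 CPM in controls against 15.5, 15.4 and 17.0 CPM in Pcp2-cre mice. Its part in the *C1ql1* values was not tested.

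**Figure D2:**
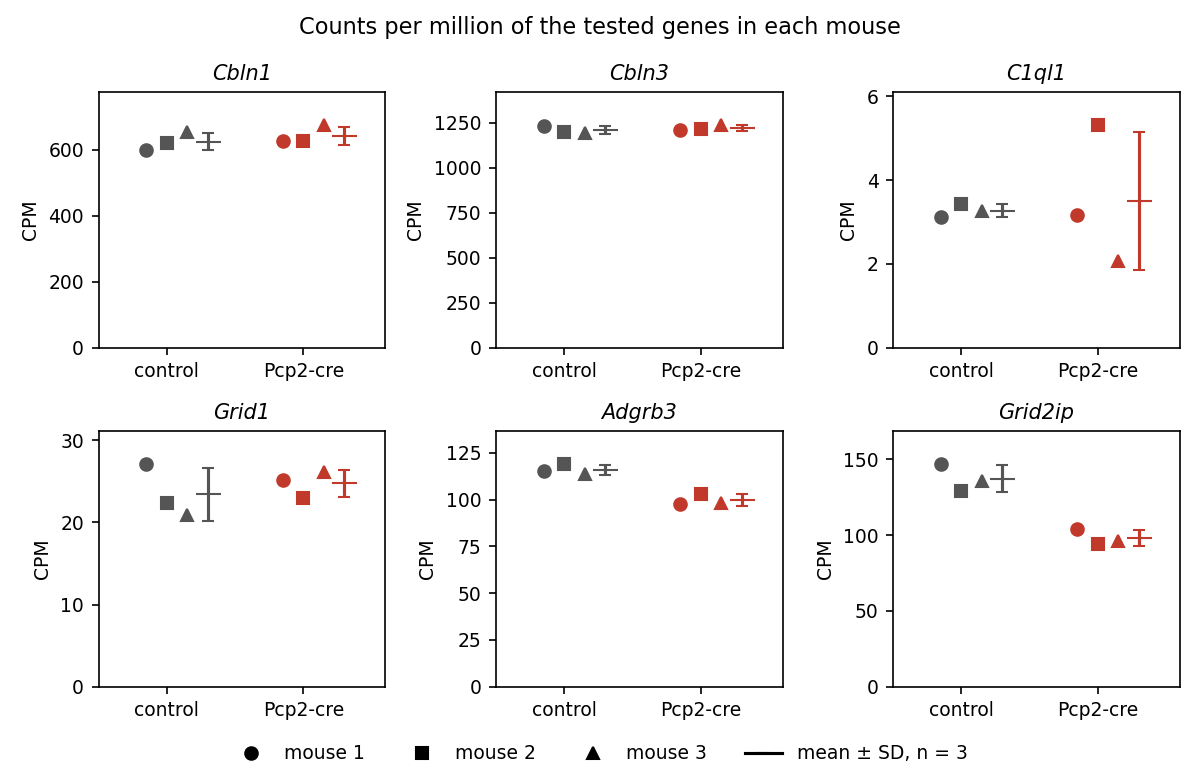
CPM of the 6 tested organizer genes in each mouse (y axes start at 0). Symbols mark mice 1, 2 and 3 of each genotype and bars the mean ± SD of n = 3 mice. The Pcp2-cre mice sit below all controls in *Adgrb3* (97.9 to 103.2 CPM) and *Grid2ip* (94.3 to 104.0 CPM), and the groups overlap in the other 4 genes.

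Among the receptors, *Grid1* (ENSMUSG00000041078, chromosome 14, 34541769 to 35305336, forward strand) encodes a delta-type glutamate receptor that binds cerebellins and is known from interneurons and glia of the cerebellum. Its level was 27.1, 22.3 and 20.9 CPM in controls against 25.2, 23.0 and 26.2 CPM in Pcp2-cre mice. The controls spanned the Pcp2-cre values. The log2 fold change was 0.08 (standard error 0.10, 95% confidence interval -0.13 to 0.29, Benjamini-Hochberg adjusted p = 0.758 in edgeR's quasi-likelihood test).

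*Adgrb3* (ENSMUSG00000033569, chromosome 1, 25106526 to 25869270, reverse strand) encodes the adhesion G protein-coupled receptor BAI3, the receptor of the *C1ql1* product, and its promoter is one of those printed with 3 GC boxes. It had 924, 798 and 1148 counts in controls against 743, 894 and 663 counts in Pcp2-cre mice. Scaled to library size these were 115.3, 118.8 and 113.7 CPM in controls against 97.9, 103.2 and 98.1 CPM in Pcp2-cre mice. The 3 Pcp2-cre mice were all lower than the 3 controls, and the mice of each group lay close together. The mean fell from 116 ± 2.61 CPM to 99.7 ± 3.01 CPM (n = 3 mice each, SD). This was a log2 fold change of -0.21 (standard error 0.0433, 95% confidence interval -0.30 to -0.12, Benjamini-Hochberg adjusted p = 0.00218 in edgeR's quasi-likelihood test), or a change of -13.8%, lower in 3 of 3 Pcp2-cre mice. By p it ranked 613 among the 16961 genes tested. The call was lost in limma on log2(FPKM + 1) and log2(FPKM + 0.1), with adjusted p of 0.0747 and 0.0759 and log2 changes of -0.23 and -0.24, in a range over 16 alternatives from 3.51e-04 to 0.0759.

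*Adgrb1* and *Adgrb2* encode the paralogous receptors BAI1 and BAI2 and had log2 fold changes of -0.01 and 0.10, neither past the test. The log2 ratio of *Adgrb3* to *Adgrb1* counts was -0.75, -0.70 and -0.76 in controls against -0.94, -0.99 and -0.89 in Pcp2-cre mice. That of *Adgrb3* to *Adgrb2* was -0.19, -0.22 and -0.36 in controls against -0.53, -0.64 and -0.55 in Pcp2-cre mice. In both ratios each Pcp2-cre mouse lay below each control, with differences of -0.20 and -0.32. The two-sided exact permutation p was 0.10 for each, the smallest that 3 mice against 3 allow, and 0.133 after Benjamini-Hochberg adjustment over the 4 ratios.

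*Grid2ip* (ENSMUSG00000010825, chromosome 5, 143343093 to 143377907, forward strand) encodes delphilin, a postsynaptic scaffold protein of Purkinje cells that binds the tail of a delta-type glutamate receptor, and its printed promoters hold 1 and 3 GC boxes. It had 1175, 867 and 1371 counts in controls against 790, 817 and 648 counts in Pcp2-cre mice. In CPM the values were 146.6, 129 and 136 in controls against 104.0, 94.3 and 95.9 in Pcp2-cre mice. The groups were well separated, since the lowest control exceeded the highest Pcp2-cre mouse by more than the spread within either group. The mean fell from 137 ± 8.82 CPM to 98.1 ± 5.23 CPM (n = 3 mice each, SD). The log2 fold change was -0.49 (standard error 0.0504, 95% confidence interval -0.59 to -0.38, Benjamini-Hochberg adjusted p = 6.43e-07 in edgeR's quasi-likelihood test), a change of -28.6%, lower in 3 of 3 Pcp2-cre mice. By p it ranked 150 among all tested genes, and it was called lower in each of 16 alternatives, with log2 fold changes from -0.53 to -0.44.

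*Grid2ip* shares 645 of its 6773 exon bases with *9530056K15Rik* on the opposite strand. That gene had 243, 216 and 321 counts in controls against 212, 243 and 188 counts in Pcp2-cre mice, fewer than *Grid2ip* in every mouse. Its log2 fold change was -0.17 (Benjamini-Hochberg adjusted p = 0.231 in edgeR's quasi-likelihood test). Whether the counting used strand is not given in the sources used here, so reads in the shared stretch cannot be told apart.

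The falls of the scaffold and the receptor were compared within libraries. The log2 ratio of *Grid2ip* to *Adgrb3* counts was 0.35, 0.12 and 0.26 in controls against 0.09, -0.13 and -0.03 in Pcp2-cre mice. Each Pcp2-cre value lay below each control, a difference of -0.27 in which *Grid2ip* changed more (two-sided exact permutation p = 0.10, the smallest possible, and 0.133 after Benjamini-Hochberg adjustment over the 4 ratios).

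**Figure D3:**
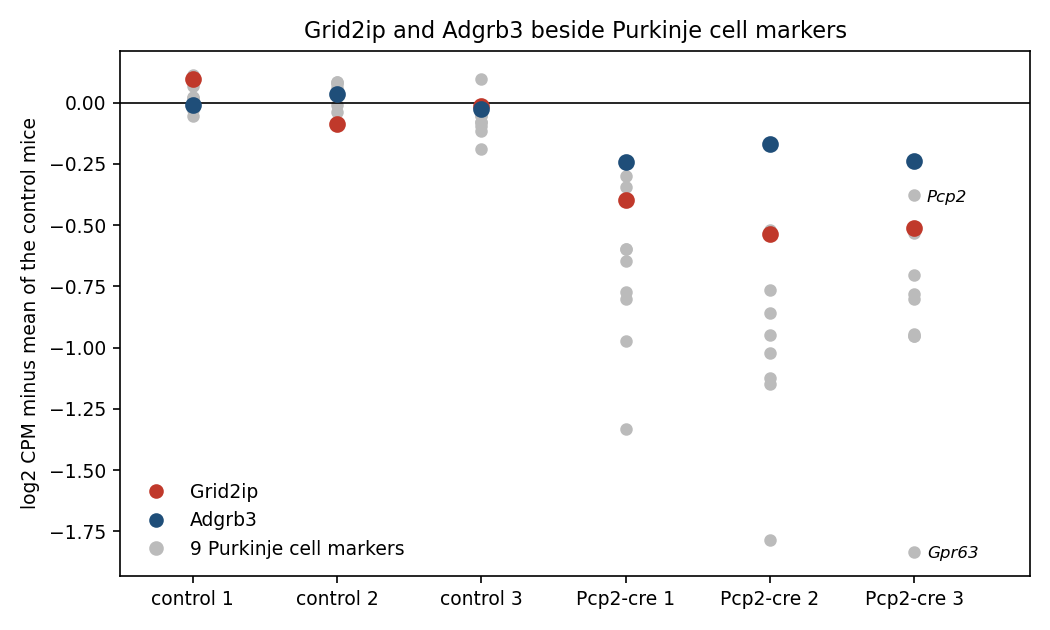
Log2 CPM of *Grid2ip*, *Adgrb3* and 9 Purkinje cell markers in each mouse, minus the mean of the 3 control mice of that gene. In each Pcp2-cre mouse *Adgrb3* lies nearest to 0, and the markers reach from *Pcp2*, with a log2 fold change of -0.40, to *Gpr63*, at -1.65.

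Set beside the Purkinje cell markers, 7 of 9 had a lower log2 fold change than *Grid2ip* and all 9 a lower one than *Adgrb3*. The median log2 fold change of the 9 markers was -0.78, and their range ran from -1.65 (*Gpr63*) to -0.40 (*Pcp2*). Per mouse, the log2 CPM of *Grid2ip* minus the mean log2 CPM of the markers was -1.39, -1.59 and -1.41 in controls against -1.15, -1.04 and -1.10 in Pcp2-cre mice. Every Pcp2-cre mouse was higher on this relative scale, by 0.37 on average (two-sided exact permutation p = 0.10, adjusted 0.20 over 4 comparisons). For *Adgrb3* the same quantity was -1.74, -1.71 and -1.67 in controls against -1.24, -0.91 and -1.07 in Pcp2-cre mice, again without overlap, and differed by 0.63 (two-sided exact permutation p = 0.10, adjusted 0.20). Relative to the mean of these markers, both genes thus changed less. In bulk tissue the cell types that made their RNA cannot be told apart, so this does not compare levels within Purkinje cells. With the median of the marker changes in place of the mean, a summary chosen after seeing the data, the differences were 0.31 for *Grid2ip* and 0.58 for *Adgrb3*. The median of the marker levels is *Pcp2* in every mouse, the marker that changed least, and against *Pcp2* alone the differences were -0.08 for *Grid2ip* and 0.18 for *Adgrb3*. *Pcp2* shares 941 of its 1828 exon bases with *Pet100* on the opposite strand, which was also lower (-0.44), so reads in that stretch cannot be told apart. The Pcp2-cre mice also carry the *Pcp2-cre* transgene, and whether its RNA adds to their *Pcp2* counts was not tested.

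The genes whose pattern over the 6 mice was most like that of *Grid2ip*, by the root mean square difference of centred log2 CPM, were *Anks1b* (0.0215) and *Ppp1r16b* (0.0419), with log2 fold changes of -0.51 and -0.46. For *Adgrb3* they were *Dnajc10* (0.0149) and *Inpp1* (0.0195), with log2 fold changes of -0.19 and -0.18.

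**Figure D4:**
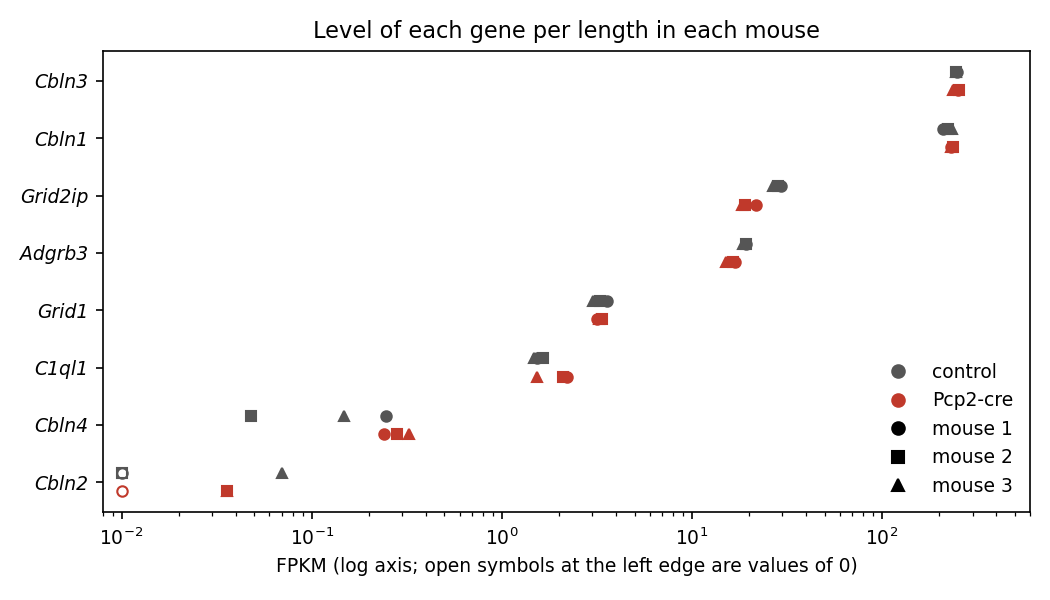
FPKM of the 8 organizer genes in each mouse on a log axis, ordered by their mean over the 6 mice, with values of 0 as open symbols at the left edge. The means run from 0.0236 FPKM for *Cbln2* to 247 FPKM for *Cbln3*.

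Levels were compared between genes in FPKM, which corrects for length. *Cbln3* had the highest level, 246 ± 2.87 in control and 247.5 ± 9.09 FPKM in Pcp2-cre mice (SD, n = 3 mice each). *Cbln1* followed with 223 ± 11.8 and 234 ± 3.55 FPKM. All controls had more *Cbln3* than *Cbln1* on this scale, while in Pcp2-cre mice the ranges of these neighbours overlapped, at 237 FPKM for *Cbln3* in mouse 3 and 238 FPKM for *Cbln1* in mouse 2.

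Next came *Grid2ip*, with 28.1 ± 1.34 and 19.8 ± 1.79 FPKM, and *Adgrb3*, with 19.1 ± 0.362 and 16.1 ± 0.898 FPKM (SD, n = 3 mice each). Within each genotype every mouse had more *Grid2ip* than every mouse had *Adgrb3*, and the gap was narrower in the Pcp2-cre group. *Grid1* had 3.30 ± 0.275 and 3.27 ± 0.105 FPKM and *C1ql1* 1.55 ± 0.0894 and 1.95 ± 0.362 FPKM, without overlap between these neighbours. *Cbln4*, at 0.147 ± 0.0989 and 0.283 ± 0.0432 FPKM, and *Cbln2*, at 0.0232 ± 0.0402 and 0.0239 ± 0.0207 FPKM, were the lowest, and the range of one reached into that of the other. In cerebellar RNA *Adgrb3* was therefore higher per length than *C1ql1* in every mouse, with 15.1 to 19.3 FPKM beside 1.48 to 2.21 FPKM. The cell bodies of climbing fibres lie outside the cerebellum, so these values do not compare the receptor with the ligand of that synapse.

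The other genes of these synapses were examined as lists. Of 74 listed pathway genes 72 were tested. Of these, 17 were called lower (23.6%, against 4.75% of all tested genes) and 1 higher (1.39%, against 2.99%). The median log2 fold change of the pathway genes was -0.05, beside 0.00 over all tested genes and 0.03 over the 6 tested organizer genes. With the fold threshold 4 pathway genes were lower, *Shank2*, *Homer3* and *Tenm3* among them, and 1 higher (*Grn*). Over all tested genes 1.79% were lower and 1.37% higher with it.

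**Figure D5:**
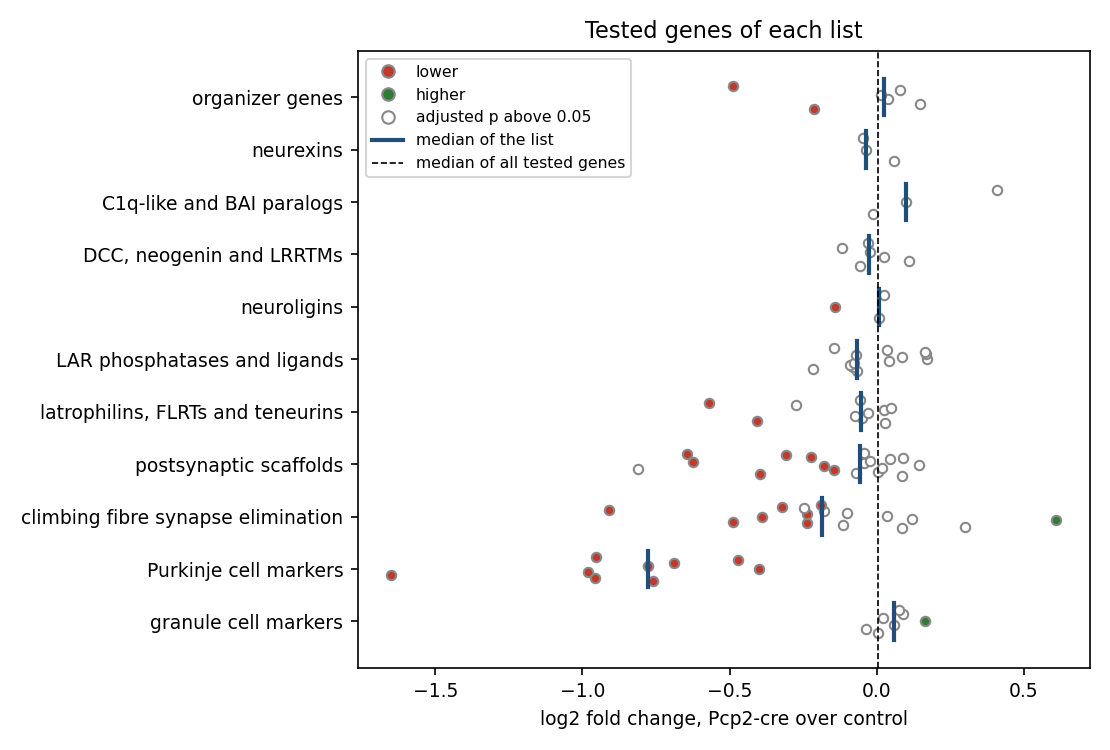
Log2 fold change of each tested gene (points) by list, with the median of each list as a thick bar and the median of all tested genes as a dashed line. Filled points passed the test. The scaffold and climbing fibre lists hold 7 lower genes each, and all 9 Purkinje cell markers are lower.

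Lists of adhesion molecules from both sides of the synapse came next. None of 3 neurexin genes, 6 genes of the DCC, neogenin and LRRTM proteins, and 13 genes of LAR phosphatases and their ligands was called in edgeR's test or in DESeq2, and at an unadjusted p under 0.05 there were 0, 0 and 3 (all higher). The medians of these lists were -0.04, -0.03 and -0.07 on the log2 scale, and the most abundant genes, *Nrxn2*, *Neo1* and *Ptprs*, had log2 fold changes of -0.04, -0.03 and 0.09. Of the C1q-like and BAI paralogs 3 of 5 were tested and 0 were called in edgeR's test or in DESeq2, with 1 at an unadjusted p under 0.05. That gene, *C1ql3*, named after its values were seen, had a log2 fold change of 0.41 (Benjamini-Hochberg adjusted p = 0.138 in edgeR's quasi-likelihood test), and every Pcp2-cre mouse (10.5 to 11.7 CPM) lay above every control (6.11 to 9.98 CPM).

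The remaining lists of adhesion molecules, and the scaffolds of the postsynaptic side, included several genes that fell with *Grid2ip* and *Adgrb3*. Of 3 neuroligin genes 1 was called lower, *Nlgn2* (-0.14), and this call held in 7 of 16 alternatives, with an adjusted p of up to 0.358 in limma on log2(FPKM + 0.1). Among 10 latrophilin, FLRT and teneurin genes 2 were lower, *Tenm3* (-0.57) and *Adgrl2* (-0.41), while the most abundant, *Adgrl1*, had a log2 fold change of 0.03. Of 18 postsynaptic scaffold genes 7 were lower, with *Shank2* at -0.65 and *Homer3* at -0.63, and the median was -0.06. This count of 7 was 4 without control mouse 1, 4 with a choroid plexus score as covariate, and 2 and 1 in limma on log2(FPKM + 1) and log2(FPKM + 0.1). *Shank2* encodes a large scaffold of excitatory spines, and *Homer3* encodes an adaptor of Purkinje cell spines. *Homer3* shares 1153 bp of exon with *Ddx49* on the opposite strand, which also had a lower value (-0.47), so that reads in that stretch cannot be told apart. The call of *Homer3* was lost in limma on log2(FPKM + 0.1), at a log2 change of -0.64 (adjusted p = 0.0513 from limma with Benjamini-Hochberg adjustment). The call of *Tenm3* was lost in limma on log2(FPKM + 1) and log2(FPKM + 0.1) and after a choroid plexus score was added, with log2 changes of -0.33, -0.53 and -0.43 and adjusted p of 0.113, 0.146 and 0.106.

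Of 16 genes of climbing fibre synapse elimination, the developmental pruning of surplus climbing fibres, 7 were lower and 1 higher, and the list median was -0.18 on the log2 scale. *Cacna1a*, the most abundant gene of the list in FPKM, had -0.11 and was not called. *Grn*, the gene of progranulin, rose from 56.1 ± 2.88 CPM to 85.8 ± 7.72 CPM (n = 3 mice each, SD), or by 0.61 on the log2 scale. It shares 1273 of its 3885 exon bases with *Fam171a2* on the opposite strand, which had 366 to 623 counts per mouse and a log2 fold change of 0.04. Microglia, which are known to express *Grn*, had 6 of 7 markers called higher, with *Csf1r* the most abundant in CPM and *C1qa* in FPKM. The summed level of these markers was 65.5, 62.8 and 67.1 CPM in controls against 174.5, 168 and 189.7 CPM in Pcp2-cre mice. The part of these markers in the *Grn* value was not tested.

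Markers of other cell types were read in the same libraries. Oligodendrocyte precursor and oligodendrocyte lists each had 3 genes called higher, with medians of 0.30 and 0.20 on the log2 scale. Interneuron markers had 2 of 7 called lower, *Gad1* and *Slc32a1*, of which both are also expressed by Purkinje cells. Of 2 unipolar brush cell markers 0 were called in edgeR's test, with 0 also at an unadjusted p under 0.05 and in DESeq2. In the astrocyte and Bergmann glia list 2 of 6 were lower, *Slc1a3* (-0.22) and *Gdf10* (-0.25), and 2 higher, *Gfap* (1.94) and *Aqp4* (0.51), and the summed level was 1878, 1867 and 1812 CPM in controls against 2103, 2167 and 2194 CPM in Pcp2-cre mice. Choroid plexus markers varied widely, with 710.1, 1119 and 14.7 CPM in controls against 6.32, 10.04 and 65.7 CPM in Pcp2-cre mice. Of these 5 markers 2 were tested and both were called lower, *Ttr* (-4.61), the most abundant, and *Clic6* (-3.86), and in *Clic6* the groups did not overlap (11.0 to 52.0 CPM against 1.58 to 2.66 CPM). With the log2 of this sum as a covariate, a choice made after seeing the data, *Grid2ip* and *Adgrb3* were again the 2 organizer genes called lower, *Adgrb3* just past the threshold (Benjamini-Hochberg adjusted p = 0.0499 in edgeR's quasi-likelihood test).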

How the data were processed

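Cerebella of 6 mice were sequenced as poly A-enriched paired-end libraries. Reads were trimmed and aligned by the authors to GRCm39 (STAR), then quantified with featureCounts and StringTie on a Gencode annotation. They deposited raw counts for 53746 genes and FPKM values for 55005 genes. That featureCounts gave the counts and StringTie the FPKM values was inferred from the values. Tool versions, Gencode release, strand setting and treatment of multi-mapping reads are not given in the sources used here, and reads shared by paralogs or overlapping genes could be split between them.

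Columns were matched to mice by genotype and mouse number. The analysis of counts used edgeR 4.0.16 under R 4.3.3 (filterByExpr, TMM, quasi-likelihood fit and test, genotype alone in the design) over the 16961 genes kept, with Benjamini-Hochberg adjustment over all of them. The scripts were tested on simulated counts. Single values per mouse were compared with two-sided exact permutation tests. Replicates differed by more than sampling noise (chi-square per gene 1.37 to 3.17), so none was a duplicate. The mitochondrial share of counts was 2.37% to 2.66%. Genes named are the 8 organizer genes and, in each list, those past both thresholds, the smallest p in each direction and the most abundant in FPKM, besides the 2 most similar genes to each organizer gene called. The members and lists were chosen with earlier results of these data known. For 1 listed gene an older symbol was resolved through RefSeq synonyms. Positions and exon overlaps came from Gencode M39 (GRCm39), promoters from RefSeq (GRCm38.p6). Alternatives were DESeq2 1.42.0, median-of-ratios size factors, library totals alone, no filter, a minimum of 10 counts per mouse, a replicate block, a covariate for sex or for a choroid plexus score, limma 3.58.1 on log2 FPKM with 1 or 0.1 added, and each mouse left out in turn. Some genes of the pathway are not reported here.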

Additional observations from a re-analysis of the deposited data

How the results depend on the processing

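The direction of *Grid2ip* and *Adgrb3* was kept in 16 of 16 alternatives each, and their call in 16 and 14. In limma on log2(FPKM + 1) and log2(FPKM + 0.1) 1 organizer gene was lower in place of 2, and 8 and 7 pathway genes in place of 17. The cause was not tested, although fewer of all genes were called lower there too, 277 and 246 in place of 805. In the other alternatives lower pathway genes ran from 12 to 19. They numbered 12 with the choroid plexus score and without control mouse 1, where 520 and 603 of all genes were called lower. With no filter and without control mouse 3 they numbered 19, where 1012 and 871 of all genes were. Higher pathway genes numbered 2 in place of 1 with library totals alone and with sex as a covariate, and 1 to 2 with single mice left out (2 without control mouse 2 or Pcp2-cre mouse 2); the cause was not tested. Of the 18 pathway genes called, 8 kept the call in every alternative and 0 reversed. A replicate block gave 2 organizer genes lower and 0 higher, and 17 and 1 pathway genes. The mouse numbers share no stated origin. The deviations of same-numbered mice correlated at 0.0408, 0.0565 and 0.166, and 3 of 6 mice correlated best with their own number. *Grid2ip* differed by -0.0821 in place of 0.367 on the log2 scale relative to the median level of the Purkinje cell markers. That median is *Pcp2* in every mouse, with the limits given above. The choroid plexus score was chosen after seeing the data. Depth limits *Cbln2*, *Cbln4* and *C1ql1*, with at most 46 counts in a mouse.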
